A study of Homo sapiens with 12 samples.

Results

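Expression of 50 genes grouped under ribosome biogenesis was measured in HCT116 cells, an established human colorectal carcinoma line. They encode RNA polymerase I and its initiation factors, factors that process and modify ribosomal RNA (rRNA), the RNA exosome and 2 stand-alone pseudouridine synthases. The genes were taken by symbol, from a list of 50, from a table that lists 60580 genes, and each of the 50 was among the 16123 genes that entered the tests because some library held 20 or more counts of them. The lowest count of any of the 50 in any library was 314. RNA had been sequenced from 4 groups of 3 labelled libraries each. These were *WT* cells and the *miR-34a/b/c-KO* genotype, called the knockout below, from which the regions encoding the 3 mature miR-34 microRNAs were deleted, each treated with the solvent DMSO as control or with 5-FU (5-fluorouracil) for 48 h. All were single-cell clones from a CRISPR-Cas9 experiment. The *WT* clones had received the Cas9 plasmid without a guide RNA. As the labels do not tie libraries to clones or cultures, p-values measure the spread between these libraries, and a difference between clones and an effect of the deletion cannot be told apart. The library labelled *WT* with 5-FU, replicate 1, held the same count as *WT* with DMSO, replicate 3, at all 60580 genes. It was left out, so that *WT* cells with 5-FU were represented by 2 libraries.

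Ribosomes begin in the nucleolus. There, RNA polymerase I (Pol I) transcribes a long precursor rRNA, with UBTF and the TBP-containing complex SL1 (*TAF1A* to *TAF1D*) holding the promoter and RRN3 recruiting the polymerase. Small nucleolar ribonucleoproteins (snoRNPs) modify the precursor, box C/D particles by ribose methylation and box H/ACA particles by pseudouridylation, while the small subunit (SSU) processome and the 60S assembly factors cut and fold it. The RNA exosome, a ring of 6 subunits under a cap of 3, threads RNA 3′ ends to the nucleases EXOSC10 and DIS3 and trims rRNA precursors. 5-FU is converted to nucleotides that enter RNA as well as DNA metabolism, and disturbed rRNA maturation and inhibited pseudouridine synthases are among its described effects.

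The microRNAs that the knockout removes were read first against the transcripts of these genes. Mature sequences from RefSeq (GRCh38) are shown 5′ to 3′ with the seed, bases 2 to 8, in capitals, because the seed defines the matching site.
hsa-miR-34a-5p: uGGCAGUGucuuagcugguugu
hsa-miR-34b-5p: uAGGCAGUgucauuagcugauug
The 2 seeds are shifted by 1 base against each other. hsa-miR-34a-5p lies at chr1:9151735-9151756 (minus strand) and hsa-miR-34b-5p at chr11:111512950-111512972 (plus strand). The site complementary to the miR-34a-5p seed, CACTGCC, was searched in the sense strand of the 3′ UTR of the canonical transcript (GENCODE v44, GRCh38). It was found in 5 of the 50 genes (10%), beside 17.6% of the 13121 genes tested that have such a transcript and 15.6% of all 19538. These shares take no account of length, and the 3′ UTRs of the 50 ran from 47 (*EXOSC4*) to 7626 bases (*DIS3*). The shifted site of miR-34b-5p was not searched, and no mature sequence of miR-34c-5p was available here. The 5 sites are shown with the match in capitals, 10 bases before it and 6 after it.
*POLR1A*: tgcatgtgcaCACTGCCccctga
*UBTF*: agaaaacaggCACTGCCctggtg
*NOP2*: acgggtggctCACTGCCattgtc
*RRP1B*: ccagccgagtCACTGCCtgaccg
*DIS3*: taatattcatCACTGCCaaatag
These windows lie in the 3′ UTRs at chr2:86021901-86021923 (*POLR1A*), chr17:44206725-44206747 (*UBTF*), chr12:6556955-6556977 (*NOP2*) and chr13:72752544-72752566 (*DIS3*) on the minus strand, and at chr21:43694216-43694238 (*RRP1B*) on the plus strand. In cells without drug, *POLR1A* was higher in knockout than in *WT* cells (log2 fold change 0.20 ± 0.05, FDR = 0.00187). The number after ± is the standard error (SE) of the log2 fold change throughout, and FDR is the false discovery rate, the p-value of edgeR's test adjusted over all genes tested. The values were -0.02 ± 0.05 (FDR = 0.697) for *UBTF*, -0.07 ± 0.05 (FDR = 0.247) for *NOP2*, -0.40 ± 0.04 (FDR = 1.08e-06) for *RRP1B* and -0.18 ± 0.06 (FDR = 0.0129) for *DIS3*. Of the 5 genes with a site, 1 was thus higher without drug, 2 were lower and 2 did not pass the test. Under 5-FU the pattern was another. *UBTF* was higher in knockout than in *WT* cells (0.28 ± 0.05, FDR = 0.000403) and *NOP2* lower (-0.16 ± 0.06, FDR = 0.0273). *POLR1A* (-0.06 ± 0.05, FDR = 0.331), *RRP1B* (-0.02 ± 0.05, FDR = 0.746) and *DIS3* (0.01 ± 0.06, FDR = 0.928) did not pass the test there. A match of letters is a description of the sequence and not a site in use.

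The promoters were read for the E-box CACGTG, a palindrome bound by MYC with MAX and by other basic helix-loop-helix factors. In RefSeq windows (GRCh38.p14) from 250 bases before to 50 bases after the annotated gene start, given for 42 of the 50 genes, 14 held it (33.3%). The share was 12.3% of the 11177 genes tested that have a window and 8.77% of all 27305 windows. A core motif of NRF1, likewise a palindrome, was in 1 of the 42 windows (2.38%) beside 2.52% of the genes tested. The E-boxes of 7 of these 14 genes are shown in capitals with up to 10 bases on each side, on the strand of the gene. Those of the others, *EXOSC5* among them, are not shown.
*FBL*: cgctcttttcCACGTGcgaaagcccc
*GAR1*: gccagaggggCACGTGgcgccggtga
*UTP20*: tttttccgtcCACGTGacccactcag
*RRP9*: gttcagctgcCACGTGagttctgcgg
*PES1*: cttggcagggCACGTGcgggaggaag
*NOP2*: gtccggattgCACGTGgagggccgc
*PUS7*: cgctgcgccgCACGTGtgcgagcccg
The windows are at chr19:39846358-39846383 (*FBL*), chr3:51941894-51941919 (*RRP9*), chr22:30591882-30591907 (*PES1*), chr12:6568242-6568266 (*NOP2*) and chr7:105522228-105522253 (*PUS7*) on the minus strand, and at chr4:109815783-109815808 (*GAR1*) and chr12:101280085-101280110 (*UTP20*) on the plus strand. The E-box began 10 bases before the gene start in *UTP20* and 5 bases before it in *RRP9*, and in the other 5 it lay 7 (*FBL*) to 36 (*NOP2*) bases into the transcript. Without drug, the median log2 fold change of knockout against *WT* cells was -0.24 over the 14 genes with an E-box, of which 10 were lower at an FDR below 0.05, and -0.21 over the 28 without one, of which 19 were lower. With 5-FU, the genotype medians were -0.36 and -0.21, with 11 of 14 and 16 of 28 lower. The difference between the genes with and without the motif was not tested.

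The total counts were 23747699 to 35249026 per library in *WT* and 23917274 to 31019750 in knockout cells with DMSO, and 29236075 to 39064210 and 22831415 to 25698417 with 5-FU. Levels are given as CPM, the usual counts scaled to a common library size, here with upper-quartile factors. The rows of the 3 miR-34 hairpins were at 0 in all 12 files, *WT* included, and *MIR34AHG*, the host transcript of miR-34a, extends beyond the deleted part, so neither checks the deletion. *MIR34AHG* was higher in the knockout (log2 fold change 2.19 ± 0.08 with DMSO and 1.99 ± 0.08 with 5-FU). As a check of the drug labels, the p53 targets *CDKN1A* (166 to 168 CPM in *WT* cells with DMSO and 1977 to 2179 CPM with 5-FU) and *MDM2* (134 to 145 and 1005 to 1232 CPM) were higher in the libraries labelled 5-FU. In knockout cells *CDKN1A* was at 453 to 488 and 2431 to 2534 CPM, and *MDM2* at 189 to 197 and 794 to 822 CPM. Without drug both were higher in knockout than in *WT* cells (1.49 ± 0.05, FDR = 9.37e-13 and 0.45 ± 0.06, FDR = 2.54e-05, log2 fold changes). Of the epithelial markers, *EPCAM*, *CDH1*, *KRT8*, *KRT18*, *KRT19* and *CDX2* were present in every library and *VIL1* was at 0 to 2.21 CPM. *PTPRC*, *COL1A2*, *DCN* and *PECAM1*, markers of leukocytes, fibroblasts and endothelium, were at 0 to 0.308 CPM, whereas the collagen gene *COL1A1* was at 21.7 to 70.5 CPM.

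Together the 50 genes took 0.764 to 0.799% of all counts in *WT* cells with DMSO, 0.648 to 0.669% in *WT* cells with 5-FU, 0.634 to 0.639% in knockout cells with DMSO and 0.56 to 0.562% in knockout cells with 5-FU. The 4 ranges did not overlap. *NPM1* alone held 16.6 to 28.9% of the counts of the 50, and without it the ranges were 0.559 to 0.573%, 0.529 to 0.532%, 0.475 to 0.48% and 0.464 to 0.468%. In a bulk sample, less RNA of a gene per cell and fewer cells with it cannot be told apart. Per kilobase of canonical transcript, *NPM1* had the highest level in *WT* cells with DMSO (1698 CPM per kb), followed by *FBL* (293), *NHP2* (171), *NOLC1* (166) and *NOP56* (162). *UTP20* had the lowest (4.47 CPM per kb), with *POLR1A* (6.99) and *EXOSC6* (7.56) next above it.

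**Figure D1:**
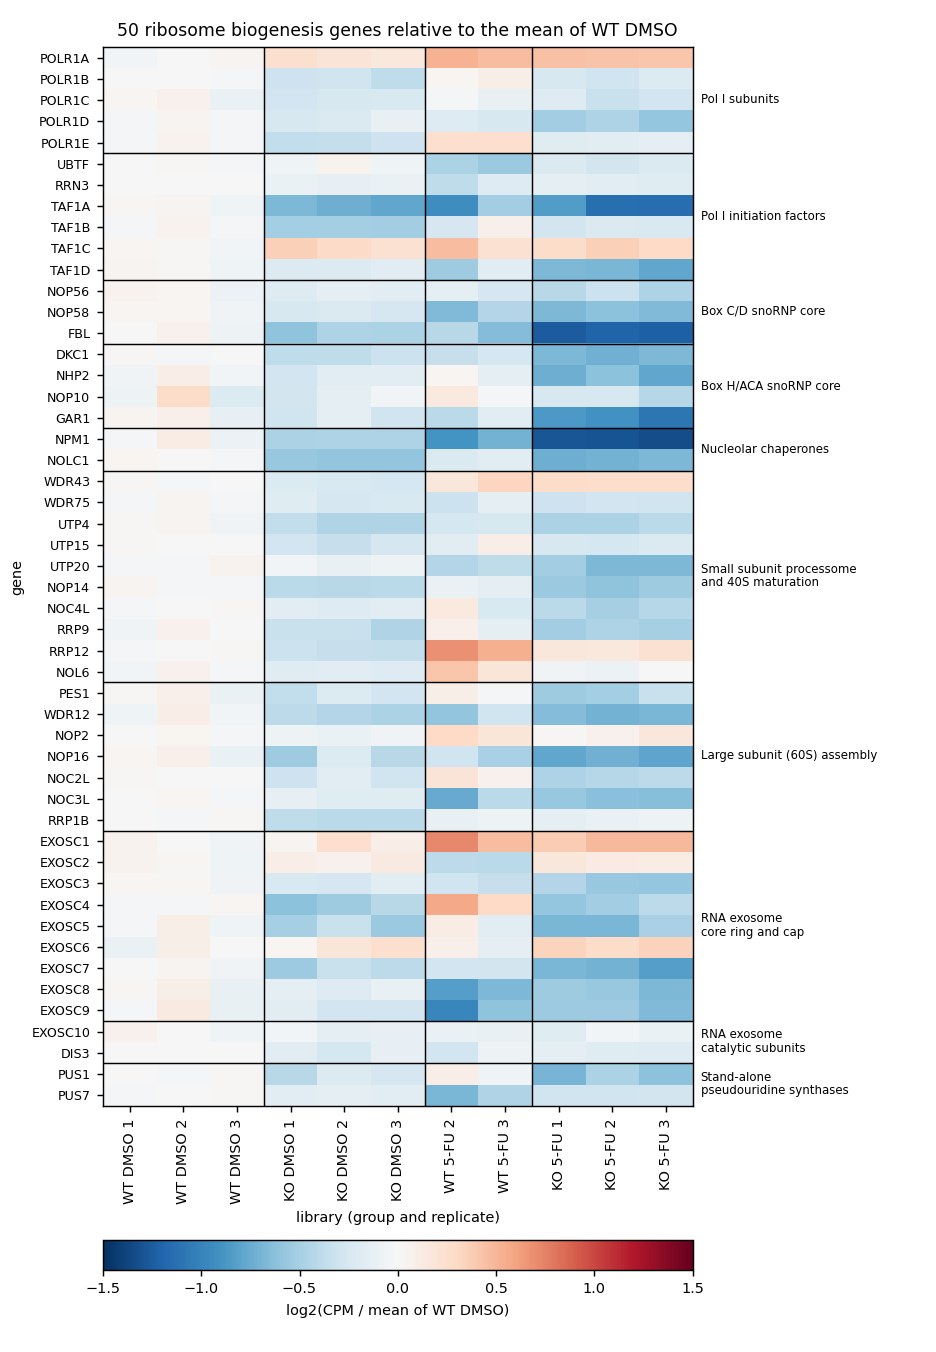
Level of the 50 genes in each of the 11 libraries (columns) as log2 of CPM over the mean of *WT* cells with DMSO (colour), with the genes (rows) grouped by role. Most rows are blue in the knockout with and without drug, *FBL* and *NPM1* most deeply in knockout cells with 5-FU, while *POLR1A*, *TAF1C*, *RRP12* and *EXOSC1* are red in *WT* cells with 5-FU.

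Without drug, transcripts of most of these genes were lower in knockout than in *WT* cells, most of them by less than 1.5-fold. By the FDR alone (below 0.05, Benjamini-Hochberg over all 16123 genes, edgeR), 36 of the 50 were lower and 2, *POLR1A* and *TAF1C*, were higher. The background was 21.9% of all genes lower and 24.5% higher. The median log2 fold change was -0.24 over the 50 and 0.03 over all genes, and 45 of the 50 had a negative value. When an absolute fold change above 1.5 was also required, which is what "called" means below, 1 gene (*TAF1A*) was called lower and 0 higher by edgeR, beside 4.97% and 9.1% of all genes. DESeq2 also called 0 higher, and at an unadjusted p below 0.05 edgeR had 3 higher. The 3 knockout libraries lay below all 3 *WT* libraries for 41 of the 50 genes, beside 27.4% of all genes, and above them for 3, beside 30.1%.

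With 5-FU in *WT* cells, 26 of the 50 fell and 9 rose by the FDR alone, beside 28.3% and 31.9% of all genes. Called were 4 lower (*NPM1*, *EXOSC9*, *EXOSC8*, *TAF1A*) and 2 higher (*RRP12*, *EXOSC1*), beside 9.38% and 18.5%. The median was -0.15 over the 50 and 0.03 over all genes. In knockout cells, likewise, 26 fell and 8 rose by the FDR alone, beside 33.8% and 26.6% of all genes. There 3 were called lower (*NPM1*, *FBL*, *GAR1*) and 0 higher by edgeR and by DESeq2, beside 12% and 13.3%, with 8 higher at an unadjusted p below 0.05. The median was -0.15 over the 50 and -0.06 over all genes, and it was -0.11 and -0.02 under TMM scaling and -0.10 and -0.01 under DESeq2.

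Under 5-FU, 32 of the 50 were lower and 4 (*UBTF*, *EXOSC2*, *EXOSC6*, *PUS7*) higher in knockout than in *WT* cells by the FDR alone, beside 28% and 21.6% of all genes. Called were 6 lower (*EXOSC4*, *FBL*, *GAR1*, *NHP2*, *PUS1*, *EXOSC5*), beside 10.6% of all genes, and 0 higher, beside 7.58%. DESeq2 also called 0 higher, and edgeR had 5 higher at an unadjusted p below 0.05. The median was -0.23 over the 50 and -0.05 over all genes. For 32 genes the 3 knockout libraries lay below both *WT* libraries, beside 35.1% of all genes. TMM scaling or DESeq2 size factors in place of upper-quartile factors raised the number higher by the FDR alone from 4 to 7.

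**Figure D2:**
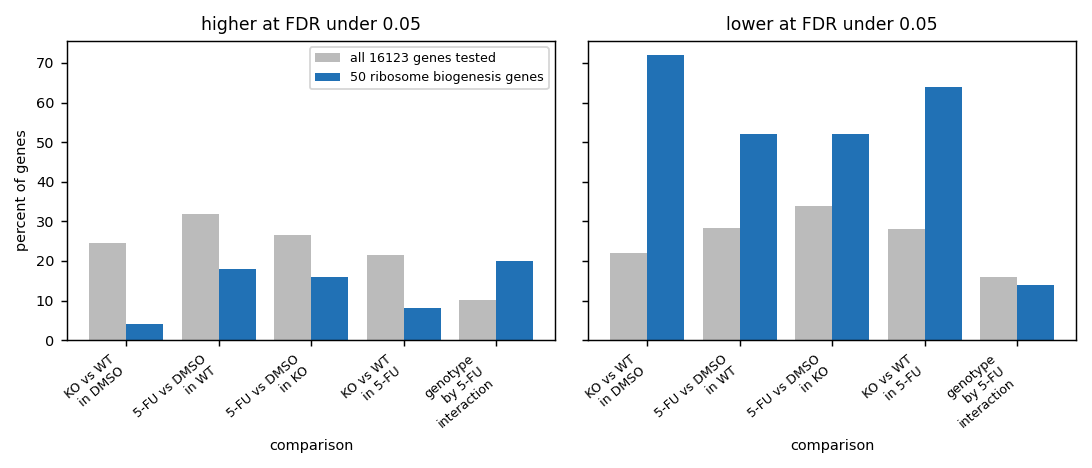
Percent of genes higher (left) and lower (right) at an FDR below 0.05 in each of the 5 tests, for all 16123 genes tested (grey) and for the 50 ribosome biogenesis genes (blue). The share of lower genes was above that of all genes in the 4 comparisons of groups, most clearly in knockout against *WT* cells with DMSO (72% beside 21.9%).

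**Figure D3:**
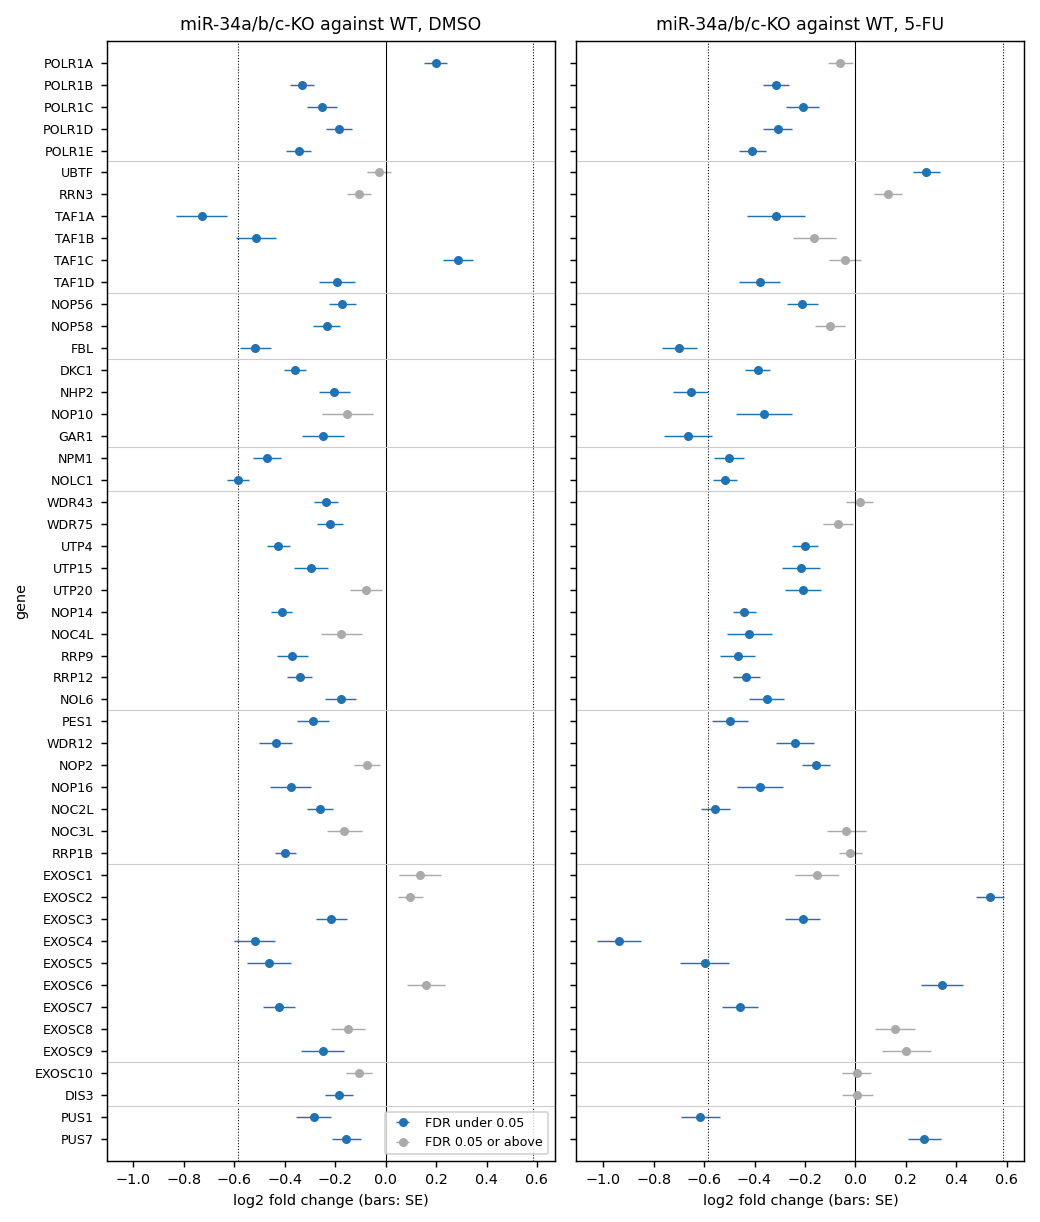
Log2 fold change of knockout against *WT* cells with DMSO (left) and with 5-FU (right) for each gene (rows, grouped by role and separated by lines). Bars are standard errors, blue points have an FDR below 0.05 and the dotted lines mark a 1.5-fold change. With DMSO, *TAF1A* alone lies beyond the line, and with 5-FU *EXOSC4* lies farthest from 0 at -0.94.

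Of the 5 genes of Pol I subunits, 4 were lower in the knockout with and without drug by the FDR alone, and *POLR1A* was the exception. *POLR1A*, the catalytic largest subunit, stood at 85.0, 87.2 and 89.6 CPM in *WT* cells with DMSO, 103, 100.1 and 97.5 CPM in knockout cells with DMSO, 126 and 119.8 CPM in *WT* cells with 5-FU and 119, 118 and 117 CPM in knockout cells with 5-FU. It rose with 5-FU in *WT* cells (0.49 ± 0.05, FDR = 3.32e-07) and in knockout cells (0.23 ± 0.05, FDR = 0.000313). The *WT* libraries with 5-FU were the 2 highest of the 11, and the rise was smaller in knockout cells (interaction -0.26 ± 0.07, FDR = 0.00998). *POLR1B*, the second-largest subunit, stood at 106, 107 and 105 CPM in *WT* cells with DMSO, 85.3, 85.8 and 81.4 CPM in knockout cells with DMSO, 108 and 113 CPM in *WT* cells with 5-FU and 89.3, 86.0 and 91.5 CPM in knockout cells with 5-FU. All 6 knockout libraries were below the 5 *WT* libraries, with a log2 fold change of -0.33 ± 0.05 (FDR = 2.34e-05) with DMSO and -0.31 ± 0.05 (FDR = 9.08e-05) with 5-FU. The drug response of *POLR1B* was 0.06 ± 0.05 (FDR = 0.296) in *WT* and 0.08 ± 0.05 (FDR = 0.152) in knockout cells. *POLR1C*, *POLR1D* and *POLR1E* were lower in the knockout with DMSO (-0.25, -0.19 and -0.34) and with 5-FU (-0.21, -0.31 and -0.41). With 5-FU, *POLR1D* fell and *POLR1E* rose in both genotypes by the FDR alone.

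Among the Pol I initiation factors, *TAF1A*, a subunit of SL1, had the largest genotype difference without drug and the largest response to 5-FU in *WT* cells, while *TAF1D* had the larger values in the other comparisons of groups. *TAF1A* stood at 29.2, 29.9 and 27.7 CPM in *WT* cells with DMSO, 18.1, 17.5 and 16.8 CPM in knockout cells with DMSO, 15.2 and 20.2 CPM in *WT* cells with 5-FU and 16.2, 13.2 and 13.1 CPM in knockout cells with 5-FU. The *WT* libraries with DMSO were above the 8 others. *TAF1A* was 1.66-fold lower in knockout cells without drug (-0.73 ± 0.10, FDR = 2.04e-05) and fell 1.64-fold with 5-FU in *WT* cells (-0.72 ± 0.11, FDR = 3.76e-05). Without *WT* 5-FU replicate 2 the latter value was -0.52 and was no longer called. In knockout cells the fall with 5-FU was smaller (-0.30 ± 0.11, FDR = 0.0223), though the interaction did not pass the test (0.42 ± 0.15, FDR = 0.0556). Without *WT* 5-FU replicate 3 the interaction was 0.63 and called. *TAF1A* shares 109 exonic bases with its antisense gene, whose reads were not told apart here, as strandedness is not given in the sources used here.

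*UBTF*, which binds the rRNA gene promoter, stood at 155, 156 and 152 CPM in *WT* cells with DMSO, 148, 160.2 and 147 CPM in knockout cells with DMSO, 111 and 105 CPM in *WT* cells with 5-FU and 133, 128 and 133 CPM in knockout cells with 5-FU. The genotypes overlapped with DMSO (-0.02 ± 0.05, FDR = 0.697). With 5-FU, *UBTF* fell in *WT* cells (-0.52 ± 0.05, FDR = 4.64e-07) and fell less in knockout cells (-0.21 ± 0.05, FDR = 0.00115, interaction 0.31 ± 0.07, FDR = 0.00524). *RRN3*, which makes Pol I competent to initiate, stood at 137, 136 and 136 CPM in *WT* cells with DMSO, 127, 126 and 127 CPM in knockout cells with DMSO, 105 and 119 CPM in *WT* cells with 5-FU and 125, 122 and 120.3 CPM in knockout cells with 5-FU. It fell with 5-FU in *WT* cells (-0.29 ± 0.05, FDR = 0.000244), whereas the value in knockout cells was -0.05 ± 0.05 (FDR = 0.372) and the responses differed (interaction 0.23 ± 0.07, FDR = 0.0255). Of the other SL1 genes, *TAF1B* was lower (-0.51 ± 0.08, FDR = 6.14e-05) and *TAF1C* higher (0.29 ± 0.06, FDR = 0.000773) in the knockout without drug. *TAF1B* rose with 5-FU in knockout cells (0.27) and *TAF1C* in *WT* cells (0.35), and each response differed between the genotypes. *TAF1D* fell with 5-FU in both (-0.34 and -0.52).

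The box C/D snoRNP core fell with the drug in both genotypes, each of its 3 genes by the FDR alone, and the 3 genes were lower in the knockout without drug. *FBL*, fibrillarin, the methyltransferase of the particle, stood at 330.3, 345 and 313 CPM in *WT* cells with DMSO, 216, 238 and 237 CPM in knockout cells with DMSO, 247 and 209 CPM in *WT* cells with 5-FU and 138, 143 and 141 CPM in knockout cells with 5-FU. The 3 libraries of knockout cells with 5-FU were the lowest, and the *WT* libraries with DMSO the highest. *FBL* fell in knockout cells by 1.64-fold (-0.71 ± 0.06, FDR = 7.43e-08) and in *WT* cells with a log2 fold change of -0.53 ± 0.07 (FDR = 7.91e-06), under the fold minimum. Under 5-FU it was 1.62-fold lower in knockout than in *WT* cells (-0.70 ± 0.07, FDR = 6.62e-07), a value that was -0.57 and not called without *WT* 5-FU replicate 2. Without that library the response of *WT* cells became called at -0.66. The interaction was -0.18 ± 0.09 (FDR = 0.168). *NOP56*, a scaffold protein of the particle, stood at 321, 317 and 292 CPM in *WT* cells with DMSO, 270.3, 279 and 277 CPM in knockout cells with DMSO, 282 and 260.4 CPM in *WT* cells with 5-FU and 232, 247 and 224 CPM in knockout cells with 5-FU. It fell by smaller amounts than *FBL*, -0.19 ± 0.06 (FDR = 0.0124) in *WT* and -0.23 ± 0.05 (FDR = 0.00163) in knockout cells. *NOP58*, the paralogous scaffold, fell with a log2 fold change of -0.55 ± 0.06 (FDR = 8.37e-07) and -0.42 ± 0.05 (FDR = 4.92e-06).

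All 4 genes of the box H/ACA core were lower in knockout than in *WT* cells with 5-FU by the FDR alone, with a median of -0.52. *GAR1*, a small core protein, stood at 44.8, 45.9 and 40.2 CPM in *WT* cells with DMSO, 35.3, 39.3 and 35.4 CPM in knockout cells with DMSO, 32.9 and 38.9 CPM in *WT* cells with 5-FU and 24.0, 23.3 and 20.5 CPM in knockout cells with 5-FU. Knockout cells with 5-FU held the 3 lowest values. *GAR1* fell 1.62-fold with 5-FU in knockout cells (-0.70 ± 0.09, FDR = 3.33e-06) and with a log2 fold change of -0.28 ± 0.09 (FDR = 0.0149) in *WT* cells, and the responses differed (interaction -0.41 ± 0.13, FDR = 0.0238). Under 5-FU *GAR1* was called lower in the knockout (-0.66 ± 0.09, FDR = 2.67e-05), and without *WT* 5-FU replicate 3 the value was -0.54 and not called. *NHP2*, which binds the snoRNA in the same particle, stood at 128, 142 and 129 CPM in *WT* cells with DMSO, 109, 119 and 119 CPM in knockout cells with DMSO, 136 and 120.2 CPM in *WT* cells with 5-FU and 80.2, 86.8 and 77.3 CPM in knockout cells with 5-FU. *NHP2* did not pass the test in *WT* cells (-0.06 ± 0.07, FDR = 0.514), fell in knockout cells (-0.50 ± 0.06, FDR = 3.85e-06) and showed the most negative interaction of the 50 (-0.45 ± 0.09, FDR = 0.00244). Its genotype difference under 5-FU was -0.65 ± 0.07 (FDR = 1.34e-06), and -0.56 without *WT* 5-FU replicate 2, not called. *DKC1*, dyskerin, the pseudouridine synthase of the particle, stood at 208, 201 and 206 CPM in *WT* cells with DMSO, 157, 158 and 164 CPM in knockout cells with DMSO, 161 and 171 CPM in *WT* cells with 5-FU and 128, 124 and 129 CPM in knockout cells with 5-FU. Its 4 groups followed the order *WT* DMSO, *WT* 5-FU, knockout DMSO and knockout 5-FU, with the middle 2 groups overlapping. *DKC1* fell with the drug in both genotypes (-0.30 ± 0.05, FDR = 6.63e-05 and -0.33 ± 0.05, FDR = 8.87e-06). *NOP10*, the smallest core protein, passed the test in 1 of the 5 comparisons, for genotype under 5-FU (-0.36 ± 0.11, FDR = 0.0129).

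The nucleolar chaperone *NPM1*, nucleophosmin, had the most negative response to 5-FU of the 50 genes in both genotypes. In *WT* cells *EXOSC9* (-0.78) and *EXOSC8* (-0.75) were within 1 SE of *NPM1* (0.06) from it. Without *WT* 5-FU replicate 3, *EXOSC9* (-0.98) and *TAF1A* (-0.92) were lower than *NPM1* (-0.90). *NPM1* stood at 2209, 2418 and 2099 CPM in *WT* cells with DMSO, 1605, 1625 and 1624 CPM in knockout cells with DMSO, 1201 and 1369 CPM in *WT* cells with 5-FU and 917, 916 and 891 CPM in knockout cells with 5-FU. The 4 groups did not overlap. With 5-FU it fell 1.74-fold in *WT* (-0.80 ± 0.06, FDR = 1.41e-08) and 1.78-fold in knockout cells (-0.83 ± 0.05, FDR = 1.7e-09), with an interaction of -0.03 ± 0.08 (FDR = 0.814). The knockout was lower with a log2 fold change of -0.47 ± 0.05 (FDR = 3.3e-06) without drug and -0.50 ± 0.06 (FDR = 4.9e-06) with it, and without *WT* 5-FU replicate 2 the latter was -0.59 and called. The annotation lists 49 pseudogenes named after *NPM1*, whose reads may have been split from it or added to it. *NOLC1*, which escorts snoRNPs in the nucleolus, was lower in the knockout without drug with a log2 fold change of -0.58 ± 0.04 (FDR = 2.55e-08), just under the fold minimum. It was called under TMM scaling (-0.60), DESeq2 (-0.61) and no filter on low counts (-0.61), and without any 1 of *WT* DMSO replicate 2 (-0.59) or 3 (-0.60), knockout DMSO replicate 1 (-0.59) and *WT* 5-FU replicate 3 (-0.59). With 5-FU, *NOLC1* fell in *WT* (-0.19) and in knockout cells (-0.12).

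**Figure D4:**
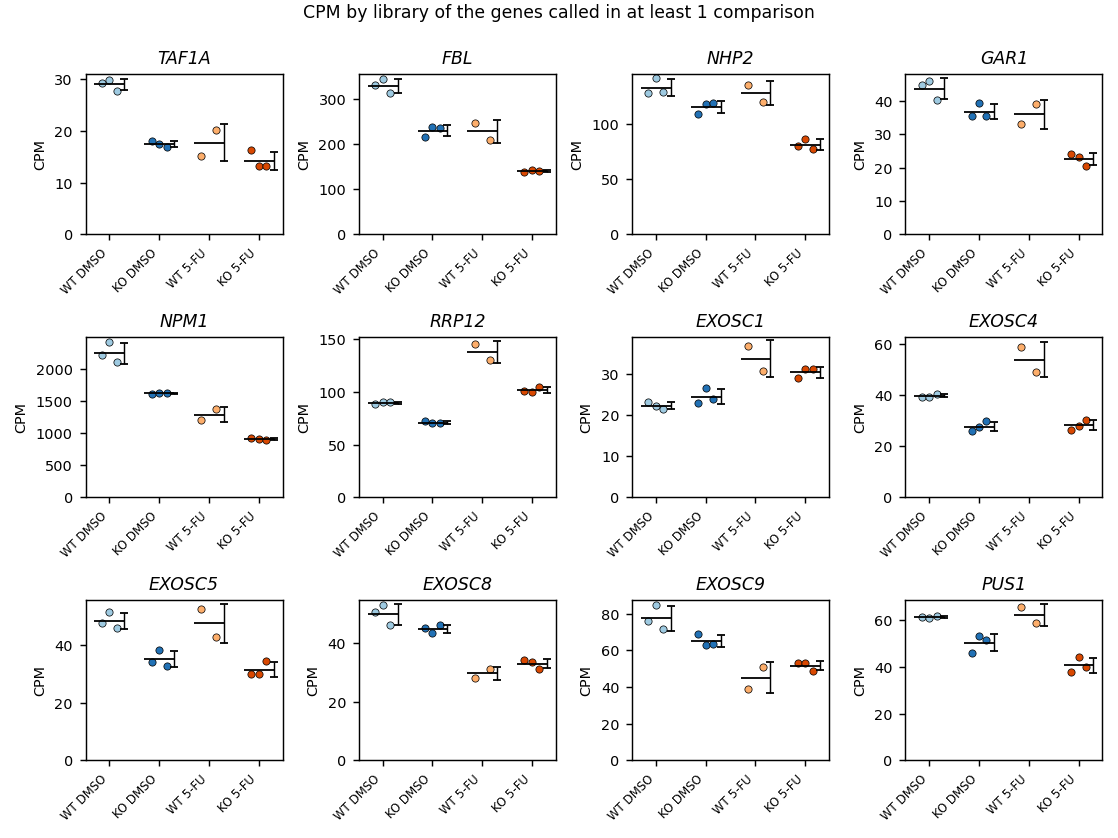
CPM in each of the 11 libraries (points, coloured by group) of the 12 genes called in at least 1 comparison, with the mean of each group as a horizontal line and the SD as an error bar. *NPM1* and *FBL* step down with the drug and with the genotype, *RRP12* steps up with the drug, and *EXOSC4* separates the 6 knockout libraries (26.0 to 30.4 CPM) from the 5 *WT* libraries (39.5 to 59.0 CPM).

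Of the 10 genes of the SSU processome and 40S maturation, 8 were lower in knockout cells with DMSO and 8 with 5-FU by the FDR alone, and 0 were higher. *UTP20* and *NOC4L* did not pass the test with DMSO, nor *WDR43* and *WDR75* with 5-FU. With the drug, 3 rose and 4 fell in *WT* cells, and 2 rose and 3 fell in knockout cells. *RRP12*, a factor of late 40S maturation and export, stood at 88.9, 90.4 and 90.9 CPM in *WT* cells with DMSO, 72.3, 70.6 and 70.5 CPM in knockout cells with DMSO, 145 and 131 CPM in *WT* cells with 5-FU and 102, 100.1 and 105 CPM in knockout cells with 5-FU. *RRP12* rose with 5-FU 1.53-fold in *WT* cells (0.62 ± 0.05, FDR = 5.38e-08), the largest rise of the 50, with *EXOSC1* (0.60 ± 0.09) within 1 SE of it. When each library was left out, the highest values were 0.69 for *RRP12* and 0.73 for *EXOSC1*. In knockout cells *RRP12* rose 1.44-fold (0.52 ± 0.05, FDR = 1.45e-07), under the fold minimum. Without *WT* 5-FU replicate 2 the rise in *WT* cells was 0.54 and not called. *UTP20*, a large scaffold of the processome, stood at 39.7, 39.7 and 41.8 CPM in *WT* cells with DMSO, 39.3, 37.4 and 38.3 CPM in knockout cells with DMSO, 29.8 and 31.0 CPM in *WT* cells with 5-FU and 28.1, 25.4 and 25.4 CPM in knockout cells with 5-FU. All 5 libraries with 5-FU were below the 6 with DMSO, with a log2 fold change of -0.41 ± 0.07 (FDR = 0.000104) in *WT* and -0.55 ± 0.07 (FDR = 2.14e-06) in knockout cells. *RRP9*, a protein of the U3 snoRNP, stood at 68.9, 74.3 and 70.9 CPM in *WT* cells with DMSO, 56.6, 56.7 and 52.4 CPM in knockout cells with DMSO, 75.3 and 65.2 CPM in *WT* cells with 5-FU and 49.9, 52.0 and 50.7 CPM in knockout cells with 5-FU. It showed genotype differences of -0.37 ± 0.06 (FDR = 0.000126) and -0.47 ± 0.07 (FDR = 3.24e-05) and drug responses of -0.02 ± 0.07 (FDR = 0.8) and -0.12 ± 0.06 (FDR = 0.114), so that only the former passed the test.

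Within the same group, *WDR43*, a processome factor that also acts on Pol I transcription, rose with 5-FU in *WT* (0.25 ± 0.05, FDR = 0.000822) and more in knockout cells (0.50 ± 0.05, FDR = 2.11e-07, interaction 0.25 ± 0.07, FDR = 0.0188). *UTP4*, another of these transcription-linked factors, fell in *WT* cells (-0.25 ± 0.05, FDR = 0.000413), while the value in knockout cells was -0.03 ± 0.05 (FDR = 0.625) (interaction 0.23 ± 0.07, FDR = 0.0229). *WDR75* fell in *WT* cells (-0.23) and *NOL6* rose in *WT* cells (0.30). *NOP14* fell in both (-0.12 and -0.15) and *NOC4L* in knockout cells (-0.27), and for *UTP15* the responses were -0.02 and 0.05, neither past the test.

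Of the 7 genes of 60S assembly, 5 were lower in the knockout without drug and 5 with it by the FDR alone. *PES1*, of the PeBoW complex that processes the large-subunit rRNAs, stood at 209, 218 and 192 CPM in *WT* cells with DMSO, 159, 178 and 169 CPM in knockout cells with DMSO, 219.5 and 203 CPM in *WT* cells with 5-FU and 142, 144 and 163 CPM in knockout cells with 5-FU. In the knockout it was lower with a log2 fold change of -0.29 ± 0.06 (FDR = 0.00173) with DMSO and -0.50 ± 0.07 (FDR = 3.03e-05) with 5-FU. *PES1* fell with 5-FU in knockout cells (-0.17 ± 0.07, FDR = 0.0297), although the groups overlapped, and its value in *WT* cells was 0.04 ± 0.07 (FDR = 0.69). *WDR12*, its partner in PeBoW, fell in both (-0.44 and -0.24). *NOP2*, an rRNA cytosine methyltransferase, stood at 114, 116 and 111 CPM in *WT* cells with DMSO, 108, 106 and 109 CPM in knockout cells with DMSO, 139 and 129 CPM in *WT* cells with 5-FU and 115, 119 and 128 CPM in knockout cells with 5-FU. *NOP2* rose with 5-FU in both genotypes (0.24 ± 0.06, FDR = 0.00124 and 0.16 ± 0.05, FDR = 0.0116), while *NOC3L* (-0.57 and -0.45) and *NOP16* (-0.39 and -0.39) fell in both. Exons of *NOP2* share 2550 bases with another gene model on the same strand. *RRP1B* rose in knockout cells (0.29 ± 0.04, FDR = 1.81e-05) beside -0.09 ± 0.05 (FDR = 0.101) in *WT* cells (interaction 0.38 ± 0.06, FDR = 0.000401). *NOC2L* fell in knockout cells (-0.17 ± 0.05, FDR = 0.0116) beside 0.13 ± 0.06 (FDR = 0.0664) in *WT* cells (interaction -0.30 ± 0.08, FDR = 0.0113).

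The exosome core did not move as a unit. Its ring is built of the pairs EXOSC4 with EXOSC9, EXOSC5 with EXOSC8 and EXOSC6 with EXOSC7, and with 5-FU in *WT* cells the transcripts of the first pair went opposite ways. *EXOSC9* stood at 75.8, 84.9 and 71.6 CPM in *WT* cells with DMSO, 68.9, 63.1 and 63.3 CPM in knockout cells with DMSO, 39.1 and 51.04 CPM in *WT* cells with 5-FU and 53.0, 53.1 and 48.9 CPM in knockout cells with 5-FU. The *WT* libraries with DMSO were the highest, and the range with 5-FU (39.1 to 51.04 CPM) reached into that of knockout cells with 5-FU. Exons of *EXOSC9* share 254 bases with *CCNA2* on the opposite strand, and their reads were not told apart here. *EXOSC9* fell 1.72-fold in *WT* cells (-0.78 ± 0.10, FDR = 3.39e-06) and with a log2 fold change of -0.33 ± 0.09 (FDR = 0.00327) in knockout cells, and the responses differed (interaction 0.45 ± 0.13, FDR = 0.0177), with a called interaction of 0.65 without *WT* 5-FU replicate 3. *EXOSC4* stood at 39.5, 39.5 and 40.6 CPM in *WT* cells with DMSO, 26.0, 27.5 and 29.8 CPM in knockout cells with DMSO, 59.0 and 49.1 CPM in *WT* cells with 5-FU and 26.6, 27.8 and 30.4 CPM in knockout cells with 5-FU. Each of the 6 knockout libraries was below each of the 5 *WT* libraries. *EXOSC4* rose with 5-FU in *WT* cells (0.44 ± 0.09, FDR = 0.000313) and the value in knockout cells was 0.02 ± 0.08 (FDR = 0.83) (interaction -0.42 ± 0.12, FDR = 0.0167). Under 5-FU it was 1.92-fold lower in the knockout (-0.94 ± 0.09, FDR = 2.96e-07), the largest genotype difference of the 50 and one that was called under all 20 alternatives tried, and without drug it was lower with a log2 fold change of -0.52 ± 0.08 (FDR = 6.92e-05). Its exons share 786 bases with another gene model on the same strand.

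Most genes near *EXOSC4* were lower in the knockout too. Of the 82 genes tested within 2 Mb of *EXOSC4*, 62 (75.6%) were lower in the knockout with DMSO and 75 (91.5%) with 5-FU by the FDR alone, with medians of -0.49 and -0.75. Genes near *EXOSC2*, a cap subunit, were mostly higher. *EXOSC2* stood at 71.8, 69.9 and 65.9 CPM in *WT* cells with DMSO, 73.9, 72.4 and 75.7 CPM in knockout cells with DMSO, 52.9 and 52.2 CPM in *WT* cells with 5-FU and 78.0, 75.3 and 74.7 CPM in knockout cells with 5-FU. Of its 51 neighbours within 2 Mb, 43 (84.3%) were higher in the knockout with DMSO and 41 (80.4%) with 5-FU, with medians of 0.59 and 0.49. The log2 fold change of *EXOSC2* itself was 0.10 ± 0.05 (FDR = 0.12) with DMSO, not past the test, and it was higher with a log2 fold change of 0.53 ± 0.06 (FDR = 1.29e-06) with 5-FU. It fell with 5-FU in *WT* cells (-0.40 ± 0.06, FDR = 1.46e-05) and had a value of 0.04 ± 0.05 (FDR = 0.534) in knockout cells (interaction 0.43 ± 0.08, FDR = 0.000606). Over the 50 genes, the neighbourhood medians without drug ran from -0.49 (*EXOSC4*) to 0.59 (*EXOSC2*) with a middle value of 0.02, and 3 lay beyond 0.3 in size, the third being that of *EXOSC8* with 7 neighbours (0.46). With 5-FU they ran from -0.75 to 0.49 with a middle value of -0.05, and 4 lay beyond 0.3 in size. Besides *EXOSC4* and *EXOSC2* these were *WDR75* (0.35) and *POLR1D* (-0.3001), with 17 neighbours each. The genotype differences of *WDR75* and *POLR1D* themselves were -0.07 and -0.31 there. The part of the neighbourhood in these genotype differences was not tested.

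Of the other ring pairs, *EXOSC8* fell like *EXOSC9*. *EXOSC8* stood at 50.2, 52.8 and 45.8 CPM in *WT* cells with DMSO, 44.8, 43.3 and 45.9 CPM in knockout cells with DMSO, 28.0 and 31.0 CPM in *WT* cells with 5-FU and 34.2, 33.5 and 31.0 CPM in knockout cells with 5-FU. All 5 libraries with 5-FU were below the 6 with DMSO. It fell 1.68-fold in *WT* (-0.75 ± 0.08, FDR = 5.51e-07) and 1.36-fold in knockout cells (-0.44 ± 0.07, FDR = 4.75e-05, interaction 0.31 ± 0.11, FDR = 0.0411). Its annotated exons share 2138 bases with *SUPT20H* on the opposite strand. *EXOSC5*, its ring partner, stood at 47.6, 51.6 and 46.2 CPM in *WT* cells with DMSO, 34.2, 38.4 and 33.0 CPM in knockout cells with DMSO, 52.5 and 42.9 CPM in *WT* cells with 5-FU and 30.1, 30.1 and 34.7 CPM in knockout cells with 5-FU. The drug responses of *EXOSC5* did not pass the test (-0.02 ± 0.09, FDR = 0.883 and -0.15 ± 0.09, FDR = 0.147). It was called lower in the knockout under 5-FU (-0.60 ± 0.10, FDR = 8.76e-05), just past the fold minimum. The call was lost without *WT* 5-FU replicate 2 (-0.44), knockout 5-FU replicate 1 (-0.56) or replicate 2 (-0.56), and under TMM scaling (-0.56) and DESeq2 (-0.55). *EXOSC7* was lower in the knockout without drug (-0.42) and with it (-0.46) and fell in both genotypes (-0.28 and -0.31). *EXOSC6* was higher in the knockout under 5-FU (0.34 ± 0.08, FDR = 0.00276).

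In the cap, *EXOSC1* stood at 23.1, 22.4 and 21.5 CPM in *WT* cells with DMSO, 23.0, 26.6 and 24.0 CPM in knockout cells with DMSO, 36.9 and 30.7 CPM in *WT* cells with 5-FU and 29.0, 31.2 and 31.2 CPM in knockout cells with 5-FU. The libraries with 5-FU were above those with DMSO in both genotypes. *EXOSC1* rose 1.52-fold in *WT* (0.60 ± 0.09, FDR = 2.05e-05) and with a log2 fold change of 0.31 ± 0.08 (FDR = 0.00336) in knockout cells. Without *WT* 5-FU replicate 2 the call in *WT* cells was lost (0.46), as it was without *WT* DMSO replicate 3 (0.57) and under DESeq2 (0.58). *EXOSC3*, the remaining cap gene, fell in both (-0.32 and -0.31). Of the catalytic subunits, *EXOSC10* stood at 121, 115 and 111 CPM in *WT* cells with DMSO, 112, 104 and 106 CPM in knockout cells with DMSO, 107 and 107 CPM in *WT* cells with 5-FU and 102, 112 and 108 CPM in knockout cells with 5-FU. It passed no test in the 5 comparisons, and its response in knockout cells was 0.00 ± 0.05 (FDR = 0.99). *DIS3* stood at 131, 130.2 and 132 CPM in *WT* cells with DMSO, 116, 109.5 and 121 CPM in knockout cells with DMSO, 107 and 125 CPM in *WT* cells with 5-FU and 118, 116 and 115 CPM in knockout cells with 5-FU. The *WT* libraries with DMSO were the highest, *DIS3* fell in *WT* cells with a log2 fold change of -0.18 ± 0.06 (FDR = 0.0191) and the value in knockout cells was 0.01 ± 0.06 (FDR = 0.884). Exons of *DIS3* share 1180 bases with *BORA* on the opposite strand, and their reads were not told apart here.

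The 2 stand-alone pseudouridine synthases, which need no guide RNA, parted under the drug. Which RNAs they modify was not measured here. *PUS1* stood at 61.2, 60.7 and 61.7 CPM in *WT* cells with DMSO, 46.0, 53.1 and 51.6 CPM in knockout cells with DMSO, 65.5 and 58.6 CPM in *WT* cells with 5-FU and 37.9, 43.97 and 39.9 CPM in knockout cells with 5-FU. Its 3 knockout libraries with 5-FU were the lowest. *PUS1* fell in knockout cells (-0.31 ± 0.07, FDR = 0.00131) beside 0.02 ± 0.08 (FDR = 0.824) in *WT* cells (interaction -0.33 ± 0.10, FDR = 0.0281), and was called lower in the knockout under 5-FU (-0.61 ± 0.08, FDR = 7.43e-06). That call was lost without *WT* 5-FU replicate 2 (-0.53) or knockout 5-FU replicate 1 (-0.57), and under TMM scaling (-0.57) and DESeq2 (-0.56). *PUS7* stood at 67.5, 69.7 and 70.3 CPM in *WT* cells with DMSO, 62.2, 62.3 and 61.9 CPM in knockout cells with DMSO, 43.0 and 50.6 CPM in *WT* cells with 5-FU and 56.1, 56.2 and 56.9 CPM in knockout cells with 5-FU. The *WT* libraries with 5-FU were the 2 lowest. *PUS7* fell more in *WT* (-0.57 ± 0.07, FDR = 1.59e-06) than in knockout cells (-0.14 ± 0.06, FDR = 0.0497, interaction 0.43 ± 0.09, FDR = 0.00219). Under 5-FU it was higher in the knockout (0.27 ± 0.07, FDR = 0.00272), whereas without drug it was lower (-0.16 ± 0.06, FDR = 0.0378).

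Set side by side, the responses to 5-FU in the 2 genotypes, which share no library, had the same direction for most genes. By the FDR alone, 21 of the 50 fell in both and 6 rose in both, and 0 changed in opposite directions. The response passed the test in 1 genotype and not in the other for 15 genes, of which the interaction passed for 10 and not for 5 (*DIS3*, *WDR75*, *NOL6*, *NOC4L*, *PES1*), and 8 passed in neither. Over the 50 genes Pearson's r of the responses was 0.73 and Spearman's rho 0.71, beside 0.75 and 0.69 over all 16123 genes. The genes of one library share its depth and scaling, and these values describe the libraries. Several values lay close to the fold minimum and depended on 1 library. Without *WT* 5-FU replicate 3, the responses of *NOC3L* (-0.75), *PUS7* (-0.68), *NOP58* (-0.66) and *WDR12* (-0.59) in *WT* cells were called, as were *NOC2L* (-0.62) and *NOC4L* (-0.59) between genotypes under 5-FU. *NOC3L* was also called under TMM scaling (-0.59) and DESeq2 (-0.60), and *PUS7* under DESeq2 (-0.59). Without knockout 5-FU replicate 1, the response of *UTP20* in knockout cells was called (-0.60).

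**Figure D5:**
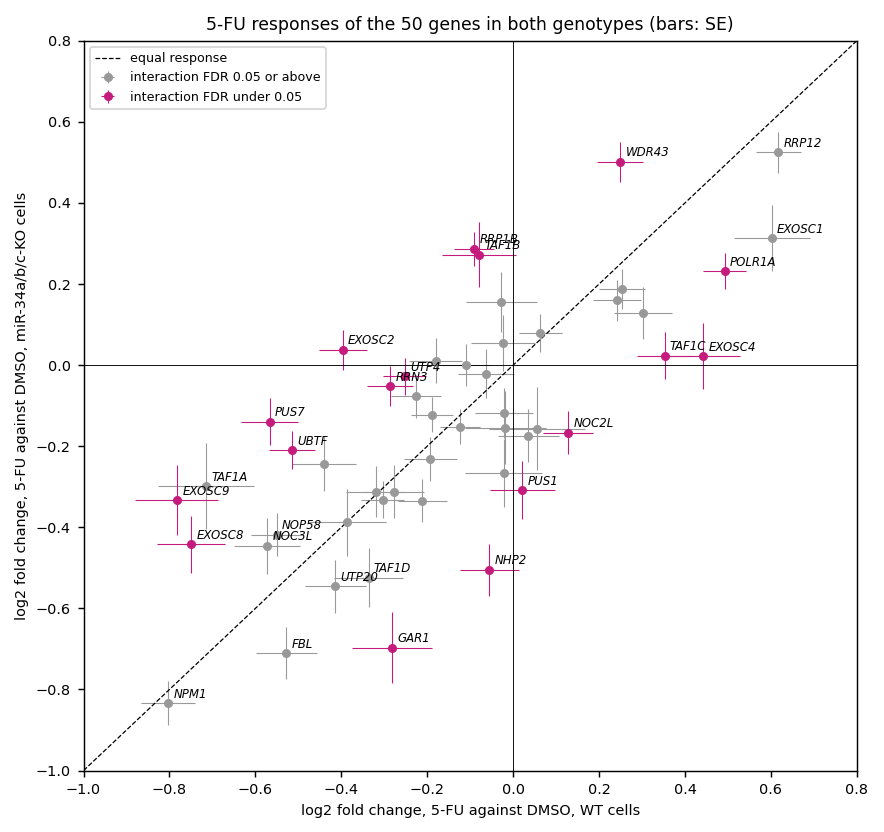
Log2 fold change with 5-FU in *WT* cells (horizontal axis) and in knockout cells (vertical axis) of the 50 genes, with standard errors as bars and the dashed line at equal response. Pink points, 17 genes, had an interaction FDR below 0.05. *EXOSC9*, *PUS7*, *EXOSC2* and *UBTF* lie above the line and *NHP2*, *GAR1*, *EXOSC4* and *PUS1* below it.

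The interaction, the response in knockout cells minus that in *WT* cells, was above 0 for 10 genes and below 0 for 7 by the FDR alone, beside 10.1% and 16% of all genes. Called were 0 above and 0 below by edgeR and by DESeq2, beside 3.42% and 6.66% of all genes, with 12 above and 9 below at an unadjusted p below 0.05. The median interaction was -0.03 over the 50 and -0.09 over all genes. Under TMM scaling it was 0.03 over the 50 and -0.04 over all, and under DESeq2 0.05 and -0.02, so that the sign of the median rests on the scaling. The counts by the FDR alone also depended on single libraries, with 16 above and 11 below without *WT* 5-FU replicate 3, and 6 above without any 1 of *WT* DMSO replicate 1 and knockout DMSO replicates 2 and 3.

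Beyond the 50 genes, 131 further genes of the same pathways in 5 lists were all among the genes tested, 6 of them under an older symbol. Without drug, 83 of the 131 were lower and 6 higher in knockout than in *WT* cells by the FDR alone, with a median of -0.24. These are 63.4% and 4.58% of the lists, beside 21.9% and 24.5% of all genes. Called lower were 4 (3.05%), beside 4.97% of all genes. *UTP23*, an SSU factor, was the lowest (-0.92 ± 0.07, FDR = 2.85e-08), followed by *BOP1* (-0.87 ± 0.07, FDR = 7.5e-08), the PeBoW partner of *PES1* and *WDR12*. *BOP1* is one of the neighbours of *EXOSC4* counted above, at a distance of 0.197 Mb, and the part of the neighbourhood in its value was not tested. The position of *UTP23* and the genes near it were not examined. Among the lists, 33 of 45 SSU factors, 37 of 50 factors of 60S assembly and 5 of 11 of the other Pol I genes were lower. Of 15 exosome cofactors 6 were lower and 2 higher, and of 10 other pseudouridine synthases 2 were lower and 3 higher (20% and 30%, near the shares of all genes).

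With 5-FU, 64 of the 131 fell and 21 rose in *WT* cells (48.9% and 16%, beside 28.3% and 31.9% of all genes, median -0.18). In knockout cells 64 fell and 23 rose (48.9% and 17.6%, beside 33.8% and 26.6%, median -0.16). *RPUSD4*, a mitochondrial pseudouridine synthase, was called lower in both (-0.87 ± 0.06, FDR = 8.27e-09 and -0.88 ± 0.06, FDR = 1.84e-09), the largest fall of the lists in each. *DIMT1*, which dimethylates 18S rRNA, was next in *WT* cells (-0.80 ± 0.08, FDR = 1.96e-07) and *ZFC3H1*, of the poly(A) tail exosome targeting connection, next in knockout cells (-0.75 ± 0.07, FDR = 2.19e-07). The largest rises were those of *EIF6*, which keeps 60S from joining 40S (0.61 ± 0.07, FDR = 1.04e-06), and of the cytoplasmic exosome helicase *SKIV2L* (0.61 ± 0.06, FDR = 2.45e-07) in *WT* cells, and of *URB1* (0.72 ± 0.06, FDR = 1.03e-08) and *RCL1* (0.71 ± 0.06, FDR = 2.76e-08) in knockout cells. The exosome cofactors had the lowest list medians with the drug, -0.33 in *WT* and -0.32 in knockout cells, with 11 and 10 of 15 lower. Under 5-FU, 68 of the 131 were lower and 7 higher in the knockout (51.9% and 5.34%, beside 28% and 21.6% of all genes, median -0.19), with *BOP1* (-1.20 ± 0.08, FDR = 6.6e-09) and *RPUSD1* (-0.72 ± 0.10, FDR = 1.86e-05) the lowest. The interaction was above 0 for 14 and below 0 for 10 by the FDR alone (10.7% and 7.63%, beside 10.1% and 16% of all genes), so that the share above 0 was that of all genes. *POLR2L*, a subunit shared by the nuclear polymerases, was the 1 gene called (-0.79 ± 0.23, FDR = 0.0179). Called below 0 was thus 0.763% of the lists, beside 6.66% of all genes, and above 0 was 0%, beside 3.42%. Within groups *POLR2L* spread widely, at 47.7 to 69.6 CPM in *WT* and 52.5 to 72.8 CPM in knockout cells with DMSO. With 5-FU it was at 73.6 and 97.4 CPM in *WT* and 46.0 to 66.9 CPM in knockout cells.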

How the data were processed

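The files hold raw counts per gene, deposited by the authors with 1 file per library. Per the study's methods, random-primed cDNA libraries of total RNA were sequenced in pairs, and reads were mapped and counted on Ensembl genes of GRCh38 (hg38) with the CLC Genomics Workbench. Whether the counting used strand is not given in the sources used here, and 24 of the 50 genes share exonic bases with another gene.

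A gene was kept where some library held 20 or more counts of it, and library totals were scaled by upper-quartile factors. All 4 groups (11 libraries) entered 1 edgeR quasi-likelihood fit (edgeR 4.0.16, limma 3.58.1, R 4.3.3), with no covariate. A gene was called at a Benjamini-Hochberg FDR < 0.05 over all genes tested and an absolute fold change > 1.5. Both limits are those of the study. The 50 genes and the lists were chosen with earlier results of these data known. Values per library are given for genes called in any comparison and for 1 or 2 genes set for most roles. In the lists, the 2 called genes with the largest fold change per comparison and direction are named. Motif searches, neighbours within 2 Mb and the miR-34 sites are descriptions, the latter 2 added after seeing the data. CPM per kb used the canonical transcript of GENCODE v44.

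The file labelled *WT* 5-FU replicate 1, a copy, was left out. The file columns that belong to no sample numbered 0. Alternatives were TMM factors, DESeq2 1.42.0, other filters, a replicate block, 1 factor of unwanted variation estimated from 11123 genes, the copied file as labelled, the minimum fold inside the test and leaving out each library. Figures were drawn with matplotlib 3.10.9 under Python 3.11.15.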

Additional observations from a re-analysis of the deposited data

Results flagged for a closer look

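For 17 of the 50 genes the response to 5-FU differed between *WT* and knockout cells in edgeR's test of the difference itself, the interaction of genotype and drug, at an FDR of 0.000401 to 0.0411. By that FDR the interaction was above 0 for 20% and below 0 for 14% of the 50, beside 10.1% and 16% of all genes. No interaction reached the 1.5-fold minimum with all 11 libraries in the fit, and the *WT* response rests on 2 libraries with 5-FU.

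The response was more positive in knockout than in *WT* cells for 10 genes. Among the factors of transcription by Pol I, the interaction on the log2 scale (± SE) was 0.31 ± 0.07 for *UBTF*, 0.23 ± 0.07 for *RRN3* and 0.35 ± 0.12 for *TAF1B*. Among processing and assembly factors it was 0.25 ± 0.07 for *WDR43*, 0.23 ± 0.07 for *UTP4* and 0.38 ± 0.06 for *RRP1B*. Among exosome subunits it was 0.43 ± 0.08 for *EXOSC2*, 0.31 ± 0.11 for *EXOSC8* and 0.45 ± 0.13 for *EXOSC9*, and it was 0.43 ± 0.09 for *PUS7*.

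The response was more negative in knockout cells for 7 genes, a share (14%) near that of all genes (16%). The interaction was -0.26 ± 0.07 for *POLR1A* and -0.33 ± 0.09 for *TAF1C* in Pol I transcription, -0.45 ± 0.09 for *NHP2* and -0.41 ± 0.13 for *GAR1* in the box H/ACA core, -0.30 ± 0.08 for *NOC2L* in 60S assembly, -0.42 ± 0.12 for *EXOSC4* in the exosome ring and -0.33 ± 0.10 for *PUS1*. The ring partners EXOSC4 and EXOSC9, and the synthases PUS1 and PUS7, thus had interactions of opposite sign.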

How the results depend on the processing

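Counts of the 50 genes below are those called (FDR and fold) unless the FDR alone is named. Without drug, the 1 gene called lower in the knockout became 2 under TMM factors, DESeq2 and no filter on low counts, and 0 with the minimum fold inside the test. DESeq2 gave 1 rise with 5-FU in *WT* cells in place of 2. TMM factors and DESeq2 gave 7 genes higher in the knockout under 5-FU by the FDR alone in place of 4. The minimum fold inside the test left 0 rises in *WT* cells, 1 fall in knockout cells (*NPM1*) and 1 gene lower between genotypes under 5-FU (*EXOSC4*). Leaving out each library gave 1 to 2 lower without drug (2 without *WT* DMSO replicate 2 or 3, knockout DMSO replicate 1 or *WT* 5-FU replicate 3), 0 to 2 rises (0 without *WT* 5-FU replicate 2, 1 without *WT* DMSO replicate 3) and 4 to 8 falls (8 without *WT* 5-FU replicate 3) with 5-FU in *WT* cells, and 3 to 7 lower between genotypes under 5-FU (3 without *WT* 5-FU replicate 2), with 4 to 8 higher by the FDR alone (8 without *WT* 5-FU replicate 3). The interaction was above 0 for 6 to 16 and below 0 for 5 to 11 genes by the FDR alone, and 0 to 2 were called above 0 (2, *TAF1A* and *EXOSC9*, without *WT* 5-FU replicate 3). With *WT* 5-FU replicate 1 as labelled, a copy of a DMSO library inside the 5-FU group, *WT* cells had 0 rises and 0 falls by either rule. By the FDR alone, it gave 0 higher and 23 lower without drug, 4 rises in knockout cells, 2 higher between genotypes under 5-FU, and an interaction above 0 for 1 and below 0 for 1. The estimated factor of unwanted variation had 98.2% of its variance between treatments, so a fit with it cannot tell the drug response apart from the factor. With it, 0 genes rose or fell in *WT* or knockout cells by either rule. Without drug, 3 were called lower, with 0 higher and 8 lower by the FDR alone. Between genotypes under 5-FU 7 were higher, and the interaction was above 0 for 2 and below 0 for 1, by the FDR alone. The log2 values of this fit for called genes changed sign with 5-FU in *WT* cells for *TAF1A* (3.34), *NPM1* (1.34), *RRP12* (-0.17), *EXOSC1* (-1.97), *EXOSC8* (1.05) and *EXOSC9* (3.29), and in knockout cells for *GAR1* (0.85) and *NPM1* (1.06). For the reason given, these values are not read as drug responses.

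Libraries of different groups with the same replicate number in the titles had correlations of deviations from the group means of -0.28 to 0.29. With different numbers they were -0.42 to 0.41. Deviations within a group of so few libraries are tied to each other, so these values cannot tell whether libraries of the same number shared a batch. With the replicate block of the titles' numbers, 1 gene in place of 2 rose in *WT* cells (*RRP12*), and 4 in place of 6 were lower between genotypes under 5-FU. With the block of the column headers' numbers, which was chosen after seeing the data, 2 rose and 5 fell in *WT* cells and 6 were lower between genotypes under 5-FU. The lowest count of the 50 genes was 314, and the number of libraries, 2 for *WT* with 5-FU, limits the precision.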
